A study of Mus musculus with 5 samples.

Results

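The FGF/ERK feedback genes are 10 transcripts that fibroblast growth factor (FGF) signalling switches on through the kinase ERK, most of which encode brakes on that same pathway. They were the Sprouty genes Spry1, Spry2 and Spry4, the related Spred1 and Spred2, the phosphatase genes Dusp4 and Dusp6, and the transcription factor genes Etv4, Etv5 and Egr1. They were chosen by name, from the probe sets annotated with exactly 1 gene symbol. All 10 were found among 19938 genes so named. Where a gene had several probe sets, the brightest of them on average was read. RNA came from asynchronous cultures of mouse embryonic stem (ES) cells, pluripotent cells of the early embryo, and was measured on Affymetrix whole-transcript arrays. There were 2 arrays of Dicer-deficient cells (KO) and 3 of wild-type cells (WT). Dicer cuts microRNA precursors into mature microRNAs. Both genotypes were grown without feeder cells in equal parts of a serum and LIF medium and of N2B27 with 2i, where 2i is a pair of inhibitors of MEK and GSK3. Every culture was therefore exposed to an inhibitor of the kinase that activates ERK. The labels name no cell line or clone, so Dicer loss and any further difference of the KO line cannot be told apart. The study also covered cells in early G1 and, per its design text, 1 more culture of asynchronous KO cells, which were not analysed here. Dicer1, the deficient gene, had log2 signals of 7.20 and 6.84 in KO cells, against 8.84, 8.82 and 8.85 in WT cells. It was 3.52-fold lower (adjusted p = 0.000129 in limma, a linear model fitted across all genes). The labels do not say which exons were removed, so whether the probes lie there was not tested.

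In this pathway an FGF bound to its receptor recruits adaptor proteins, which load Ras with GTP, and Ras then drives the kinases Raf, MEK and ERK in turn. ERK activity induces ETS-family and EGR transcription factors, and it also induces inhibitors that act back on the pathway at different levels. Sprouty and Spred proteins restrain signalling near Ras and Raf, and Dusp4 and Dusp6 take the activating phosphates off ERK. Transcripts such as Dusp6, Spry4 and Etv4 are often read as a gauge of ERK output. In mouse ES cells, FGF4 made by the cells themselves signals through ERK and readies them for differentiation, which MEK inhibition holds back.

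The 10 feedback genes did not move together. Spry4 and Spred1 were each more than 2-fold higher in KO cells and Dusp6 was 1.62-fold higher, while Spry1 and Spry2 were lower. A called change of at least 2-fold was found for 2.3% of all genes, and for 1.54% in the higher direction. Spred2, Dusp4, Etv4, Etv5 and Egr1 did not pass the test. A gene was called where limma gave an adjusted p below 0.05. By this rule 3 of the 10 were called higher, against 8.48% of all genes, and 2 were called lower, against 8.6% of all genes. These shares of all genes include dim genes. Of the 10 members, 9 lay over the median signal of 5.41, as did 11168 of all genes. In a fit of those brighter genes alone, 3 members were called higher and 2 lower, against 1766 and 1895 of the 11168. The median log2 change was 0.00 over the 10 and 0.01 over all genes. Both KO values lay outside the WT range for 7 of the 10, namely all but Etv4, Etv5 and Egr1, against 39.9% of all genes. They lay above it for 4 members and below it for 3, against 20.0% and 19.9% of all genes. Spred1 kept its call whichever array was left out, and Spry4 kept it in 4 of 5 such fits. The calls of Spry1, Spry2 and Dusp6 were lost in most or all of them. In these bulk samples, fewer cells of a type and less RNA per cell cannot be told apart.

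**Figure D1:**
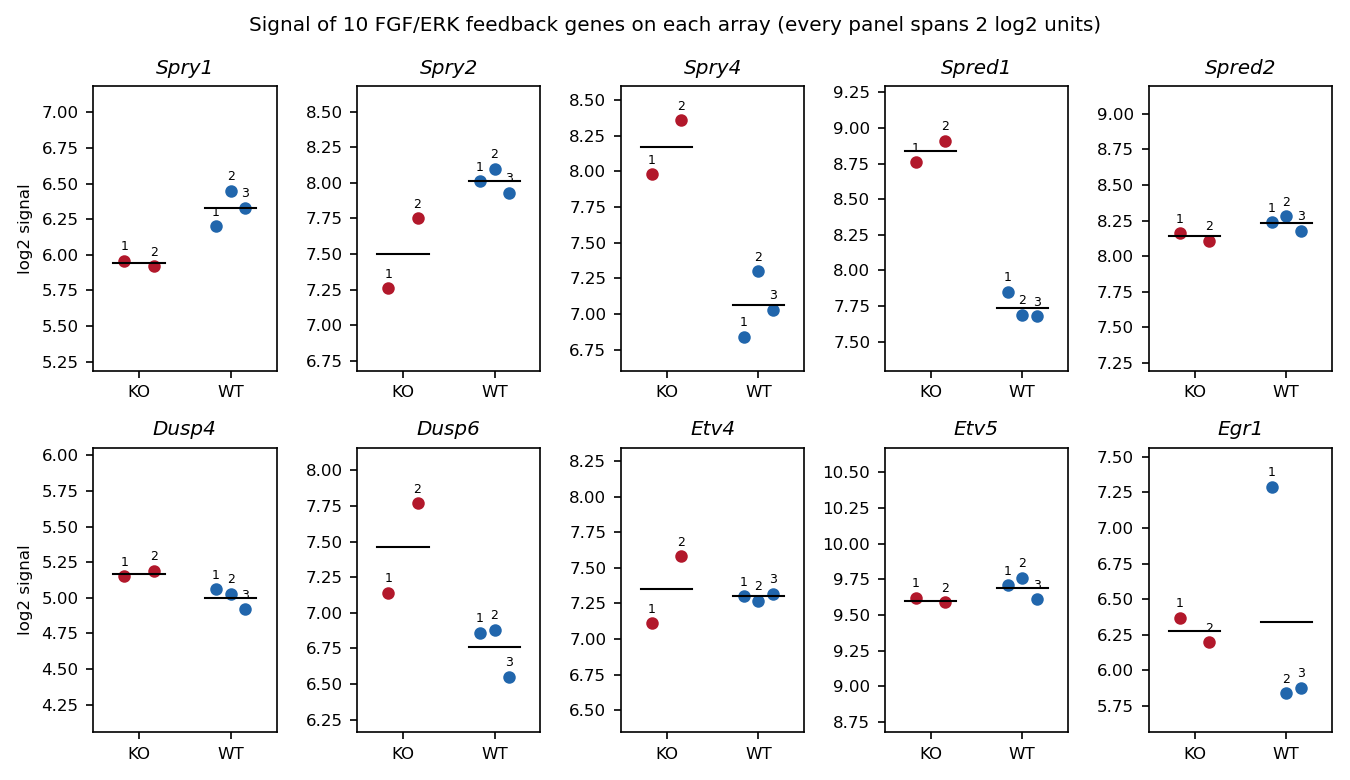
Log2 signal of each feedback gene on every array, with KO arrays in red on the left and WT arrays in blue on the right of each panel. The small digits are array numbers, the black lines are group means, and every panel spans 2 log2 units. Spry4 and Spred1 show a clear gap between the genotypes, while Egr1 has 1 WT array at 7.29 and the other WT arrays at 5.84 and 5.88.

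The Sprouty genes split by member. Spry4, whose protein restrains the Ras and Raf steps, had signals of 7.98 and 8.36 in KO cells, against 6.84, 7.30 and 7.03 in WT cells. Both KO arrays stood above every WT array. The means were 8.17 ± 0.269 in KO cells (SD, n = 2) and 7.06 ± 0.231 in WT cells (SD, n = 3). The log2 change was 1.11 (SE 0.158, adjusted p = 0.00306 in limma), a 2.16-fold higher level with a 95% confidence interval of 1.68 to 2.79. Only 1.74% of all genes changed by as much in either direction. Without KO array 2 the change was 0.92 and the call was lost (adjusted p = 0.0851).

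Spry2, the Sprouty studied most in growth factor signalling, had 7.26 and 7.75 in KO cells, against 8.01, 8.10 and 7.93 in WT cells. The groups did not overlap, but the KO arrays were 0.49 apart and the WT arrays spanned 0.17. Spry2 fell by 0.51 on the log2 scale (SE 0.142, adjusted p = 0.0472 in limma), a 1.42-fold lower level. The change was -0.26 without KO array 1 and -0.75 without KO array 2, and only the second of these fits kept the call (adjusted p = 0.246 and 0.0367). Without WT array 1, 2 or 3 the adjusted p was 0.154, 0.19 and 0.103.

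Spry1, a regulator of growth factor signalling in the developing kidney, had 5.96 and 5.92 in KO cells, against 6.20, 6.45 and 6.33 in WT cells. Here the KO arrays lay close together and below every WT array. Spry1 fell by 0.39 on the log2 scale (SE 0.0939, adjusted p = 0.0284 in limma), a 1.31-fold lower level. The call held without WT array 1 (adjusted p = 0.0324) and was lost without any of the other 4 arrays (adjusted p from 0.0732 to 0.197), though the change stayed between -0.45 and -0.33. Testing all 35556 probe sets together, of which 7.46% were called, also ended the calls of Spry1 and Spry2 (adjusted p = 0.0804 and 0.137) and left that of Spry4 (0.0271).

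Of the Spred genes, 1 rose and the other did not pass the test. Spred1 encodes a membrane-bound inhibitor that brings neurofibromin, a Ras GTPase-activating protein, to Ras. Its signals were 8.76 and 8.91 in KO cells, against 7.85, 7.69 and 7.68 in WT cells. Every KO value was above every WT value, with means of 8.84 ± 0.106 in KO cells (SD, n = 2) and 7.74 ± 0.0954 in WT cells (SD, n = 3). The log2 change of 1.10 (SE 0.0924, adjusted p = 0.000343 in limma) is a 2.14-fold higher level, with a 95% confidence interval of 1.84 to 2.48. Leaving out each array in turn gave changes from 1.02 to 1.17 with adjusted p from 0.00495 to 0.0255. Nf1, which encodes neurofibromin, moved the other way, with 7.24 and 7.15 in KO cells, against 7.57, 7.59 and 7.41 in WT cells (log2 change -0.33, adjusted p = 0.0421). The Nf1 call was lost without WT array 1 or 2 or either KO array (adjusted p from 0.124 to 0.242), with median centring and with an intensity trend.

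Spred2, the paralog of Spred1, had 8.16 and 8.11 in KO cells, against 8.24, 8.28 and 8.18 in WT cells. The KO values lay just below the WT range, with a log2 change of -0.10 (95% confidence interval -0.28 to 0.08, adjusted p = 0.51). A further Spred2 probe set read 7.75 and 7.70 in KO cells, against 8.04, 7.92 and 7.99 in WT cells. Its change was -0.26 (95% confidence interval -0.45 to -0.07, adjusted p = 0.118 over all probe sets). Both probe sets were thus lower in KO cells, and neither was called.

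The phosphatase genes both had KO values above the WT range. Dusp6, whose cytoplasmic product is specific for ERK, had 7.14 and 7.77 in KO cells, against 6.86, 6.88 and 6.55 in WT cells. KO array 2 stood well above all others, and KO array 1 was 0.26 above the highest WT array. The log2 change was 0.69 (SE 0.186, 95% confidence interval 0.26 to 1.13, adjusted p = 0.0416 in limma), a 1.62-fold higher level. The Dusp6 call was lost whichever array was left out, with adjusted p from 0.0543 without KO array 1 (change 1.01) to 0.297 without KO array 2 (change 0.38). Without WT array 1, 2 or 3 the adjusted p was 0.122, 0.125 and 0.143. It was also lost when all probe sets were tested (adjusted p = 0.134).

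Dusp4, which encodes a nuclear phosphatase of ERK, had 5.15 and 5.19 in KO cells, against 5.06, 5.03 and 4.92 in WT cells. The log2 change was 0.17 (95% confidence interval -0.02 to 0.36, adjusted p = 0.242). Its mean of 5.07 was the only one among the members to fall under 5.41, the median signal, and it was not shown to be above background.

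**Figure D2:**
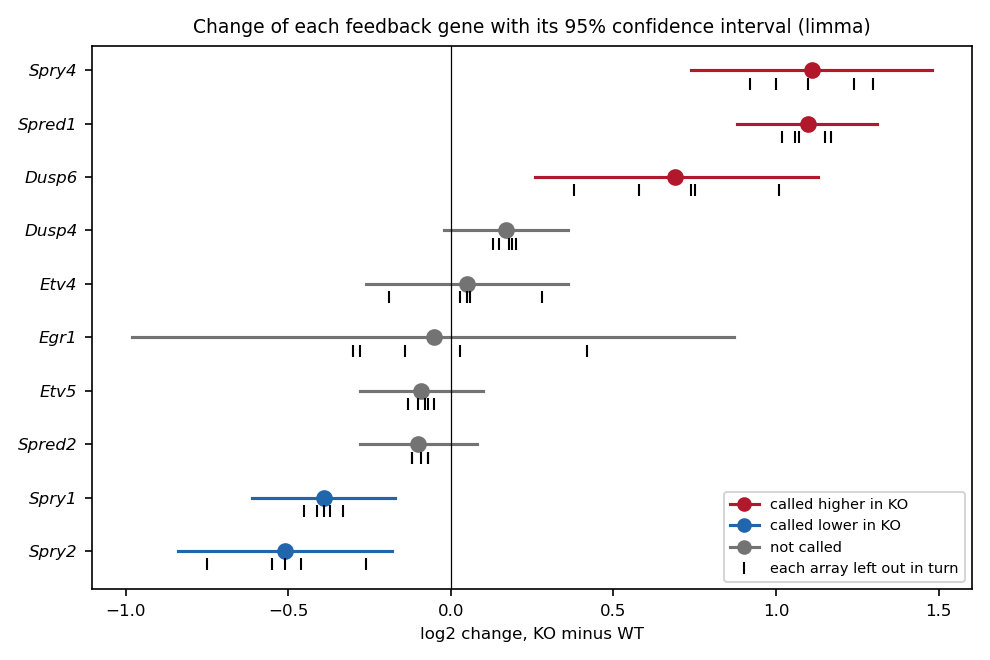
Log2 change (KO minus WT, horizontal axis) of each feedback gene with its 95% confidence interval from limma. Red marks genes called higher, blue genes called lower and grey genes not called, and the ticks below each point are the changes with each of the 5 arrays left out in turn. The ticks of Spred1 lie between 1.02 and 1.17, those of Dusp6 between 0.38 and 1.01, and those of Egr1 between -0.30 and 0.42.

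The transcription factor genes did not pass the test. Etv4, an ETS-family activator, had 7.11 and 7.58 in KO cells, against 7.30, 7.27 and 7.32 in WT cells. The KO arrays fell on either side of the WT arrays, which spanned 0.05. The change was 0.05 (95% confidence interval -0.26 to 0.36, adjusted p = 0.882), and it was 0.28 without KO array 1 and -0.19 without KO array 2.

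Etv5, the closest paralog of Etv4, had 9.62 and 9.59 in KO cells, against 9.71, 9.76 and 9.61 in WT cells. The change was -0.09 (95% confidence interval -0.28 to 0.10, adjusted p = 0.59). A further Etv5 probe set read higher in KO cells, at 8.23 and 8.22, against 8.08, 8.08 and 7.75 in WT cells. On this probe set both KO values lay above the WT range, unlike on the brighter one, which was used for the counts above. Its change was 0.25 (95% confidence interval -0.06 to 0.57, adjusted p = 0.331 over all probe sets). The probe sets disagreed in direction, and the mean of both had a change of 0.08, so no direction can be given for Etv5. The gene lies on chromosome 16. Of the 20 named probe sets numbered nearest to the further one, 19 belong to chromosome 16 genes, whereas all 20 nearest to the brighter one belong to chromosome 10 genes. The files give no probe positions, so which of them reads the Etv5 locus was not tested. The other members' probe sets had at least 18 of 20 such neighbours on the gene's own chromosome. This check was added after the values were seen.

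Egr1, a zinc-finger immediate early gene, had 6.37 and 6.20 in KO cells, against 7.29, 5.84 and 5.88 in WT cells. WT array 1 was above all the others, and the remaining WT arrays were below both KO arrays. The change was -0.05 (95% confidence interval -0.98 to 0.87, adjusted p = 0.96). Without WT array 1 it was 0.42 with adjusted p = 0.0478, so the direction and the call of Egr1 rest on that array.

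Several members differed between arrays of 1 genotype. KO array 2 exceeded KO array 1 by 0.63 for Dusp6, 0.49 for Spry2, 0.47 for Etv4 and 0.38 for Spry4. A gap of at least 0.3 in this direction was seen for these 4 of 10 members and for 4.07% of all genes. The other 6 members differed by -0.17 to 0.15. The size of 0.3 was chosen after the values were seen.

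A further list held 43 genes named as ERK targets, not all of them known to rise with ERK activity. Elk4, for one, encodes a factor that ERK phosphorylates. Of the 43, 7 had such a gap. They were Myc (0.98), Emp1 (0.80), Plaur (0.63), Etv1 (0.59), Dnmt3b (0.45), Ccnd1 (0.36) and Trib2 (0.67). Of the same 43, 3 had a gap of at least 0.3 in the other direction, namely Fosb, Zfp36 and Klf10. Another list held 12 naive pluripotency transcripts taken as sensitive to MEK inhibition, with no source given for each gene. Of these 12, 6 were lower on KO array 2 by at least 0.3, against 4.12% of all genes. These were Klf4, Tbx3, Esrrb, Prdm14, Nanog and Tcl1, and Nr0b1 was higher by at least 0.3. With 2 KO arrays this difference between cultures has no test. Between the genotypes, limma called 4 of the 12 naive transcripts lower in KO cells (33.3%, against 8.6% of all genes) and 1 higher (8.33%, against 8.48%). Those lower were Klf4 (log2 change -0.95), Tbx3 (-1.18), Esrrb (-0.72) and Tcl1 (-1.60). The 1 higher was Klf2 (0.78, adjusted p = 0.00174). All 12 lay over the median signal, and among the 11168 such genes fitted alone 1895 were called lower. Their median log2 change was -0.26.

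The WT arrays differed most in other genes. Egr1 was 1.43 higher on WT array 1 than the mean of WT arrays 2 and 3. Fos, another immediate early gene, was 1.53 higher, with 6.33 and 6.07 in KO cells, against 7.45, 6.01 and 5.84 in WT cells. These were the widest WT ranges of all 19938 genes, at 1.61 for Fos and 1.45 for Egr1. Of the 43 further ERK target genes, 6 were higher on WT array 1 by at least 0.3 (Fos, Fosb, Ier2, Etv1, Arc and Ccn1) and 3 were lower by as much (Elk3, Bhlhe40 and Lif). Over all genes these shares were 2.61% and 4.63%. Fosb was 0.63 and Ier2 0.42 higher. Other early response genes of the list were not, with Egr2, Egr3 and Egr4 at -0.10, 0.05 and -0.13, Junb at -0.13, Fosl1 and Fosl2 at -0.12 and -0.09, and Ier3 and Ier5 at -0.25 and -0.18. Set against the mean of WT arrays 2 and 3, the feedback genes Spry4 and Spry1 were lower on WT array 1 by 0.33 and 0.19 (differences of -0.33 and -0.19). Spred1, Dusp6 and Dusp4 differed by 0.16, 0.15 and 0.08, and Spry2, Spred2, Etv4 and Etv5 by at most 0.03. What set WT array 1 apart in Fos and Egr1 was not tested.

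**Figure D3:**
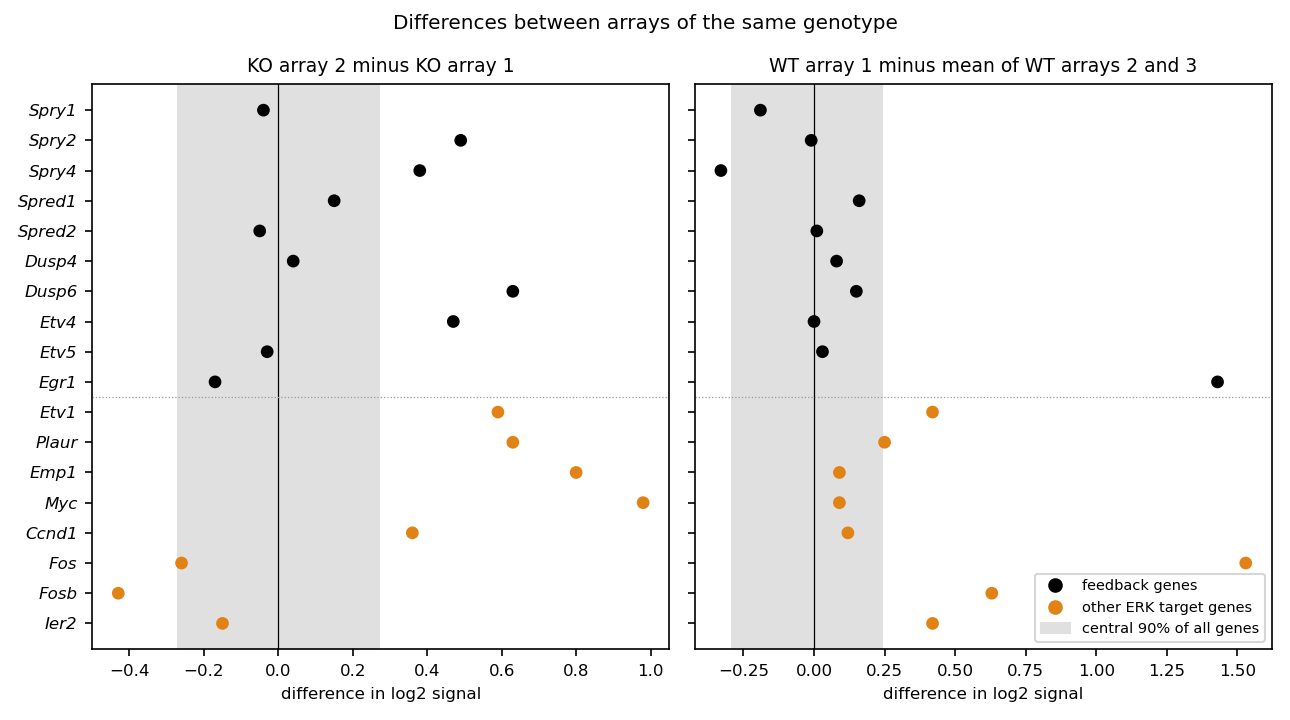
Difference in log2 signal between KO array 2 and KO array 1 (left panel) and between WT array 1 and the mean of WT arrays 2 and 3 (right panel). Black points are the 10 feedback genes, orange points are other ERK target genes chosen after their values were seen, and the grey band holds the central 90% of all genes. Dusp6, Spry2, Etv4 and Spry4 lie right of the band on the left, and Egr1 and Fos lie far right of it on the right.

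The promoters of the called members that could be printed are shown because the members share induction by ERK and yet moved apart. The sequences are the 250 bases before the annotated start, from RefSeq (GRCm38.p6), in the direction of transcription. Spred1 lies at chr2:117120821-117121070 on the plus strand, Dusp6 at chr10:99262981-99263230 on the plus strand, Spry1 at chr3:37639697-37639946 on the plus strand and Spry2 at chr14:105896820-105897069 on the minus strand. Capitals mark CGGAAG or its reverse complement CTTCCG, a form of the core that ETS-family factors bind.
Spred1: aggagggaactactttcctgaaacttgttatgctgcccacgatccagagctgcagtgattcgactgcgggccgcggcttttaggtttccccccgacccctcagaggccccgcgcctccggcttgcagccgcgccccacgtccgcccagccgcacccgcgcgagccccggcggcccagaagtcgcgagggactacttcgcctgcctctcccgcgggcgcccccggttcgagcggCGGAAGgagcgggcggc
Dusp6: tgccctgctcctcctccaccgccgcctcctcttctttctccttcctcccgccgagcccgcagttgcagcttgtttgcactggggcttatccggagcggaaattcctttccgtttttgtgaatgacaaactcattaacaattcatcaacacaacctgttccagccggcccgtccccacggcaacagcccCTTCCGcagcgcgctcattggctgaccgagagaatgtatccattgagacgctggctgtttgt
Spry1: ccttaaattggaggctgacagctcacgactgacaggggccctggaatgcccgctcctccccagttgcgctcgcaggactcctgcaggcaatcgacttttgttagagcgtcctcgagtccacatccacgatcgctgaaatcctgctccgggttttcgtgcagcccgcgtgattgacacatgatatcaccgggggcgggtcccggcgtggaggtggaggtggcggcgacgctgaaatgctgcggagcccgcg
Spry2: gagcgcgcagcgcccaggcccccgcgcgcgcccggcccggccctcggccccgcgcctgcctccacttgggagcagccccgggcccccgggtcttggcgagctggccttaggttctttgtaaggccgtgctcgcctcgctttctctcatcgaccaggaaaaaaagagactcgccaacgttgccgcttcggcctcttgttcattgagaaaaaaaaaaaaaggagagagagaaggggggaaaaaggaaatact

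The 6-base core was searched on both strands and was picked after the sequences had been read. It occurred once in the Spred1 window, 17 bases before the start, and once in the Dusp6 window, 62 bases before it. The windows of Spry1 and Spry2, which fell, held none of this 6-base form. The shorter string GGAA, the inner part of CGGAAG, occurs in every printed window, those of Spry1 and Spry2 included, and was not marked. The contrast between the windows thus rests on the form picked. That of Spred2, which was not called, held 1. Over all 32851 promoter windows of this length 13.6% held the core. The windows had a GC content of 70.8% for Spred1, 56.4% for Dusp6 and 62.4% for both Spry1 and Spry2, against a median of 52.4% over all windows. Both windows of Etv5 held no such core. A match is a description of the letters only.

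The rest of the pathway was described in the same fit. Of 141 listed genes, 131 were analysed here, and 24 of these were called higher (18.3%, against 8.48% of all genes) and 15 lower (11.5%, against 8.6% of all genes), with a median log2 change of 0.05. The listed genes were brighter than most, with 103 of the 131 over the median signal, against 11168 of all 19938 genes. In a fit of the brighter genes alone, 28 of the 103 were called higher and 13 lower, against 1766 and 1895 of the 11168. There the share called higher was still larger than that of all such genes, and the share called lower was smaller. Each call below is at an adjusted p under 0.05 in limma. At an unadjusted p under 0.05, 13.6% of all genes were higher and 14.2% lower. Of the 39 called genes, 6 kept their call whichever array was left out, namely Plaur, Elk4, Epha4 and Klf6, which rose, and Dusp9 and Pebp1, which fell.

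Of 22 genes of the FGF family, limma called 0 higher and 2 lower, and at an unadjusted p under 0.05 these counts were 0 and 4. The list takes the family by name, Fgf11 to Fgf14 included, so it is not a list of secreted ligands only. The share called lower was 9.09%, close to the 8.6% of all genes. Fgf17 had 6.41 and 6.50 in KO cells, against 7.0, 7.20 and 7.18 in WT cells, a 1.59-fold lower level. Its call was lost without either KO array (adjusted p from 0.0508 to 0.0663). Fgf11 had a change of -0.31, whose call was lost without any 1 of the 5 arrays (adjusted p from 0.069 to 0.251). Fgf4, the main FGF of ES cells, had 9.15 and 9.08 in KO cells, against 9.44, 9.28 and 9.20 in WT cells, which did not pass (log2 change -0.19, adjusted p = 0.247). Fgf5, a marker of the primed epiblast, had a change of 0.07 (adjusted p = 0.815).

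Of 17 receptor, coreceptor and heparan sulphate genes, limma called 4 higher and 0 lower, and at an unadjusted p under 0.05 these counts were 5 and 1. The share called higher was 23.5%, against 8.48% of all genes. None of the called genes encodes an FGF receptor. They were the heparan sulphate proteoglycan genes Gpc4 (log2 change 0.68) and Sdc4 (0.48), and Ext1 (0.51) and Hs2st1 (0.41), whose enzymes build and sulphate the sugar chain. Gpc4 lost its call without WT array 1 or 2 or either KO array (adjusted p from 0.051 to 0.331), and Ext1 without WT array 2 or 3 or either KO array (0.0701 to 0.22). Sdc4 and Hs2st1 lost theirs without any 1 array (0.065 to 0.233 and 0.0763 to 0.323). Fgfr1, the main FGF receptor of ES cells, had 8.17 and 7.99 in KO cells, against 8.22, 8.17 and 8.15 in WT cells (change -0.10, adjusted p = 0.555). Fgfr2 had a change of 0.33 (adjusted p = 0.286, and 0.0359 without WT array 3, with a change of 0.50).

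Of 12 adaptor and exchange factor genes, 1 was called in each direction (8.33% each, close to the shares of all genes). Ptpn11, which encodes the phosphatase SHP2 that relays receptor signals to Ras, had 7.07 and 7.04 in KO cells, against 7.69, 7.63 and 7.43 in WT cells. Ptpn11 was 1.44-fold lower (adjusted p = 0.0091), a call lost without WT array 2 or either KO array (0.0605 to 0.118). Sos2, a Ras exchange factor, had a change of 0.33, lost without WT array 1 or 2 or either KO array (0.0692 to 0.132).

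Of 15 genes of Ras, Raf, MEK and their partners, 3 were called higher (20.0%, against 8.48% of all genes) and 4 lower (26.7%, against 8.6%). Braf, a Raf kinase gene, had 8.67 and 8.71 in KO cells, against 8.26, 7.99 and 8.01 in WT cells, a 1.52-fold higher level. Shoc2, a scaffold that helps activate Raf, was 1.52-fold higher, and Rasa2, a Ras GTPase-activating protein, was 1.54-fold higher. Nras had 8.40 and 8.6 in KO cells, against 9.12, 9.08 and 9.03 in WT cells, a 1.49-fold lower level. Besides Nf1, the other calls were Lamtor3 (change -0.27) and Mknk1 (change -0.38), named after their values were seen. Map2k1, which encodes MEK1, had a change of -0.20 (adjusted p = 0.207). Braf and Rasa2 lost their call without either KO array (adjusted p from 0.0974 to 0.106 and from 0.0605 to 0.0815), and Shoc2 also without WT array 2 (0.0505 to 0.115). Nras lost it without KO array 1 (0.0602), Mknk1 without WT array 1 or 2 or either KO array (0.0976 to 0.239), and Lamtor3 without any 1 array (0.0584 to 0.16).

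Of 22 further negative regulators, 7 were called higher (31.8%, against 8.48% of all genes) and 3 lower (13.6%, against 8.6%). Their median log2 change was 0.26, against 0.01 over all genes. Dusp9, the ERK phosphatase gene on the X chromosome, had 6.88 and 7.34 in KO cells, against 8.18, 8.20 and 8.17 in WT cells. Dusp9 was 2.1-fold lower (adjusted p = 0.00158), the opposite direction to Dusp6. Dusp14 had 9.85 and 9.62 in KO cells, against 8.72, 8.56 and 8.12 in WT cells, a 2.41-fold higher level. Il17rd, which encodes the FGF pathway inhibitor Sef, was 1.53-fold higher, and Dok2, an adaptor that recruits Ras GTPase-activating protein, was 1.62-fold higher. Pebp1, the Raf kinase inhibitor protein, was 1.89-fold lower, and Dusp7, a further ERK phosphatase gene named after its value was seen, had a change of -0.53. Dusp14 and Dok2 lost their call without either KO array (adjusted p from 0.0657 to 0.0952 and from 0.104 to 0.114), Il17rd without KO array 1 (0.0927), and Dusp7 without WT array 2 or either KO array (0.0615 to 0.186).

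Of the 43 further ERK target genes, 9 were called higher (20.9%, against 8.48% of all genes) and 5 lower (11.6%, against 8.6%). Their median log2 change was 0.03. Plaur, the urokinase receptor, had 8.56 and 9.19 in KO cells, against 6.83, 6.67 and 6.48 in WT cells, a 4.64-fold higher level (adjusted p = 0.000329). Elk4, a ternary complex factor that ERK phosphorylates, had 7.73 and 7.74 in KO cells, against 6.22, 6.14 and 5.80 in WT cells, a 3.21-fold higher level. The ephrin receptor gene Epha4 was 3.01-fold higher. Etv1, the third member of the Etv4 and Etv5 subfamily, had 7.99 and 8.58 in KO cells, against 7.04, 6.96 and 6.28 in WT cells. Etv1 was thus 2.88-fold higher where Etv4 and Etv5 were not called, a call that was lost without either KO array (adjusted p from 0.0687 to 0.135).

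The 5 target genes called lower were Bhlhe40 (log2 change -0.89), Ier3 (-0.77), Epha2 (-0.47), Spsb1 (-0.34) and Hbegf (-0.29), named after their values were seen. Ier3 lost its call without either KO array (adjusted p from 0.107 to 0.166), Bhlhe40 without WT array 2 or 3 or either KO array (0.0606 to 0.228), and Epha2 without WT array 1 or 2 or either KO array (0.105 to 0.208). Spsb1 and Hbegf lost theirs without any 1 array (0.0592 to 0.196 and 0.0768 to 0.195). Fos, Myc and Ccnd1 had changes of -0.23, 0.11 and 0.33 (adjusted p = 0.814, 0.868 and 0.121), and those of Fos and Myc turned with single arrays left out.

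**Figure D4:**
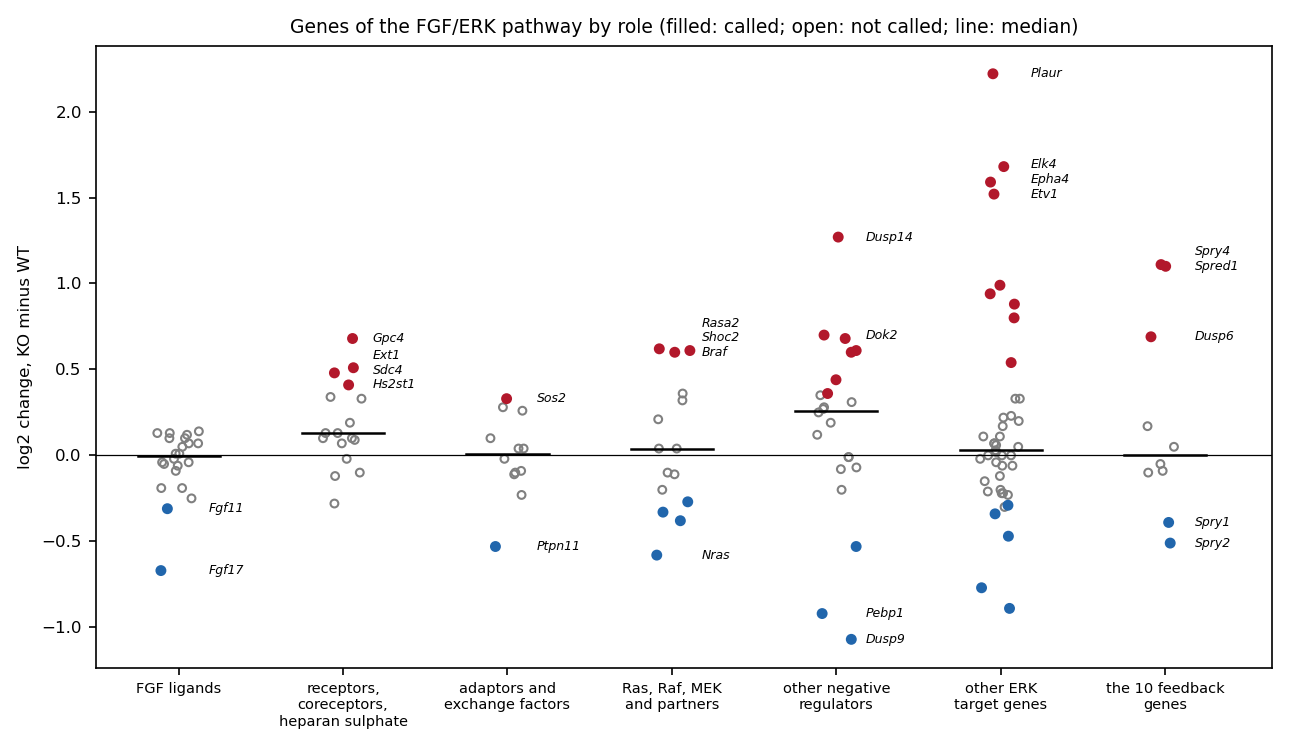
Log2 change (KO minus WT, vertical axis) of every measured gene of the FGF/ERK pathway, grouped by role along the horizontal axis. The column of FGF ligands holds all listed genes of the FGF family. Filled red points were called higher and filled blue points lower, open points were not called, black lines are medians, and the names are those of the called genes with the largest changes. The feedback genes on the right run from -0.51 for Spry2 to 1.11 for Spry4.

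For the 4 members whose values spanned at least 1 on the log2 scale, the gene with the nearest pattern over the 5 arrays was sought among 11159 brighter genes, those over the median signal. The distance was Euclidean, between values centred on each gene's mean. The nearest gene was Itgb7 for Spry4 (distance 0.187, Pearson r = 0.989), Rpe for Spred1 (0.102, r = 0.999), Lpar4 for Dusp6 (0.111, r = 0.995) and Fos for Egr1 (0.268, r = 0.981). With 5 arrays in 2 groups, such closeness describes these arrays only. Lpar4 had the same high KO array 2 as Dusp6, with 6.14 and 6.69 in KO cells, against 5.79, 5.82 and 5.60 in WT cells.

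The 5 named genes on each side of each member were read in chromosome order. They were read because earlier results of these data held a run of falls on chromosome 14, where Spry2 lies. Around Spred1, 2 of 10 were called higher, namely Meis2 and Thbs1 (log2 change 0.79), and 7.56% of all chromosome 2 genes were. Meis2, a homeobox gene, had 7.69 and 7.47 in KO cells, against 5.17, 5.50 and 4.96 in WT cells, a 5.17-fold higher level (adjusted p = 0.000145), and kept its call whichever array was left out. Around Spry4, Nr3c1 was called higher (0.54), as were 10.6% of all chromosome 18 genes. Around Dusp6, Poc1b was called lower (-0.52), as were 7.89% of all chromosome 10 genes. Around each of Dusp4, Etv4 and Egr1, 1 of 10 was called higher and 1 lower, close to the 8.48% and 8.6% of all genes. Around Spry1 there were 0 calls in limma in either direction, also at an unadjusted p under 0.05. Around Spry2, 2 of 10 were called lower, namely Rbm26 (-0.90) and Obi1 (-0.41), and 19.7% of all chromosome 14 genes were. Over all chromosomes 8.6% of genes were called lower. Ndfip2, next to Rbm26, changed by -0.21 and was not called (adjusted p = 0.0973 in limma). Whether the change of Spry2 belongs with those of its chromosome was not tested. Around Spred2, 3 of 10 were called lower, namely Wdr92 (-0.49), Slc1a4 (-0.38) and Rab1a (-0.32), and 15.0% of all chromosome 11 genes were, while C1d had a change of -0.62 (adjusted p = 0.0585). At an unadjusted p under 0.05 in limma, 7 of 10 around Spred2 were lower and 1 higher, against 14.2% and 13.6% of all genes. Around Spry2, 3 were lower and 0 higher. Around Spred1, 4 were higher and 0 lower, around Spry4 3 and 0, and around Dusp6 and Etv5 3 and 1 each. Around Egr1, 2 were higher and 1 lower, around Etv4 1 and 1, and around Dusp4 1 and 2. The neighbours of Spred1, Spry4, Dusp6 and Spry2, and Rab1a, were named after their values were seen. Thbs1 lost its call without KO array 2 (adjusted p = 0.0764), Nr3c1 and Obi1 without either KO array (0.123 to 0.129 and 0.08 to 0.0801), Poc1b without WT array 1 or either KO array (0.0537 to 0.141), and Rab1a without any 1 array (0.0523 to 0.156). Those of Etv5 included Fetub, which was 3.02-fold higher, Liph (0.44) and Tmem41a (-0.42). Wdr92 lost its call without either KO array (adjusted p from 0.0567 to 0.0739) and Slc1a4 also without WT array 2 (0.0684 to 0.113). Liph lost its call without either KO array (0.082 to 0.126) and Tmem41a without WT array 2 or 3 or KO array 2 (0.0512 to 0.12).

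Array medians lay between 5.39 and 5.45. All 10 ES cell markers lay above the median signal, with Pou5f1 at 12.01 and 11.97 in KO cells, against 11.99, 11.83 and 11.63 in WT cells. So did 8 of 12 fibroblast, 8 of 12 primitive endoderm and 8 of 10 trophectoderm markers, and 11168 of all 19938 genes. A signal above the median therefore does not tell the cell type. Of the 10 ES cell markers, 3 were called lower (30.0%, against 8.6% of all genes), namely Lin28a, Esrrb and Tdgf1. Among the 11168 brighter genes fitted alone, 1895 were called lower. Summed log2 signals of 12 primitive endoderm markers were 72.9 to 73.4 in KO cells and 74.4 to 75.9 in WT cells (0 higher, 2 lower), and those of 12 fibroblast markers were 76.1 to 76.6 in KO cells and 75.0 to 77.1 in WT cells (1 higher, 1 lower). Those of 10 trophectoderm markers were 66.1 to 66.2 in KO cells and 62.9 to 63.5 in WT cells (3 higher, namely Gata3, Krt8 and Krt18, and 0 lower). Of those not called, Eomes (log2 change -0.49) and Ascl2 (-0.48) lay below the WT range and Tead4 (0.52) above it. Cdx2, Elf5, Hand1 and Tfap2c changed by -0.05 to 0.06. At an unadjusted p under 0.05 in limma, 4 trophectoderm markers were higher and 2 lower. Over all genes, 8.48% were called higher and 8.6% lower. The part of other cell types in the changes above was not tested.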

How the data were processed

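Expression was measured on 1 array for each of 2 KO and 3 WT cultures. The authors deposited log2 values, already normalized, in 1 table of 35556 probe sets, and how they normalized it and its log base are not given in the sources used here. The base was read from the range of the values. Per the labels' protocols, biotinylated cRNA was made from total RNA. The platform annotation gave 21789 probe sets 1 symbol, 1621 several and 12146 none. Of 19938 genes, 999 had several probe sets, and 19856 were found in the RefSeq gene table (GRCm38.p6), which gave chromosomes and gene order.

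The test was limma's lmFit and eBayes, KO minus WT with no covariate (3 residual and 4.54 prior degrees of freedom), with Benjamini-Hochberg adjustment over 19938 genes at 0.05. Confidence intervals are limma's at 95%. SEs are moderated. The series' design text calls the cultures biological replicates. The smallest two-sided p of an exact permutation test of 2 against 3 arrays is 0.1, so none is given.

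Members and gene lists were chosen with earlier results of these data known. Named besides the members were for each list, at most 4 called genes, those with the largest change and both KO values outside the WT range, a fixed set (such as Fgf4, Fgfr1 and Fos), up to 3 neighbours of a member with at least 3 called among 10, and the gene nearest in pattern. Some listed genes are not reported here.

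Values were also centred on array medians or quantile normalized again. The fit was repeated with array weights, with robust moderation, with an intensity trend and with the replicate number as a block. Dim genes were dropped, probe sets of a gene averaged, every probe set tested, and each array left out in turn. R 4.3.3, limma 3.58.1, Python 3.11.15, pandas 2.3.3, numpy 2.4.6 and matplotlib 3.10.9 were used.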

Additional observations from a re-analysis of the deposited data

How the results depend on the processing

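Spred1 kept its direction and call under all 14 alternatives, and Spry4 under all but leaving out KO array 2. With the replicate number as a block, where WT array 3 has no partner and 4 arrays bear on the change, Spry1, Spry2 and Dusp6 were no longer called (changes -0.39, -0.55 and 0.58, adjusted p = 0.141, 0.117 and 0.175), nor with all probe sets tested (changes -0.39, -0.51 and 0.69). The replicate numbers are not said to pair the cultures, so the block was kept as an alternative only. Deviations of same-numbered arrays from their group means had r = 0.049 and 0.005 over genes. With 2 KO arrays, whose deviations mirror each other, these values cannot tell whether the cultures were paired. With each array left out, changes ran from -0.45 to -0.33 for Spry1, -0.75 to -0.26 for Spry2, 0.92 to 1.30 for Spry4, 0.38 to 1.01 for Dusp6, -0.19 to 0.28 for Etv4, -0.30 to 0.42 for Egr1, -0.03 to 0.20 for Fgf5, -0.53 to 0.28 for Fos and -0.38 to 0.60 for Myc. Signs turned for Etv4 without KO array 2 (-0.19), Etv5 as the mean of its probe sets (0.08), Egr1 with array weights (0.14), without WT array 1 (0.42) and without KO array 2 (0.03), Fgf5 without WT array 1 (-0.03), Fos without WT array 1 (0.28), and Myc with array weights (-0.02), with the block (-0.03), without WT array 3 (-0.04) and without KO array 2 (-0.38). The feedback genes called lower numbered 0 with the block and 0 with all probe sets tested, against 2 as reported. With 1 WT array left out, those called higher numbered 2 to 3 and those called lower 0 to 1. The 3 called higher without WT array 1 were Spry4, Spred1 and Egr1, and not Dusp6. Fits without a KO array rest on 1 KO array and are not counted in these numbers. Among all genes 477 were called higher and 417 lower with the block, 1036 and 922 with all probe sets tested, and 536 to 1396 higher and 434 to 1560 lower with each array left out. Among the 131 pathway genes, 6 were called higher and 3 lower with the block, 14 and 6 with all probe sets tested, and 6 to 20 higher and 2 to 10 lower with each array left out. Fewer arrays bore on the change in the block and in leaving arrays out, and more features were adjusted for with all probe sets; other causes were not tested. Background signals were not used here, so sizes of changes in dim genes are uncertain.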
